A study of Mus musculus with 7 samples.

Results

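Molecular chaperones bind proteins that are not yet folded or have come unfolded and help them reach or regain their shape. The HSP70 proteins take hold of short exposed stretches of a client, J-domain proteins of the Dnaja, Dnajb and Dnajc classes hand clients to HSP70 and set off its ATP hydrolysis, and nucleotide exchange factors such as the HSP110 proteins make it let go. HSP90 acts later on kinases, receptors and other signalling clients, HSP60 with its lid HSP10 folds proteins in the mitochondrial matrix, and the ring-shaped TRiC complex built from Cct subunits folds actin and tubulin. Alveolar macrophages are the resident phagocytes of the lung airspaces, secrete and degrade large amounts of protein, and hold separate chaperone sets in the cytosol, the endoplasmic reticulum (ER) and the mitochondria.

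The genes described here are the Hsp, Dnaj and Cct chaperone genes, chosen by symbol and protein-coding annotation, a rule that uses no measured value. There were 82 such genes among the 47643 rows of the deposited table, of which 21971 are protein-coding. The libraries came from mouse lung cells labelled as alveolar macrophages, and the WT labels add the surface phenotype CD11c+ F480+ SiglecF+. They were labelled WT (n = 3), cSiah1a/2f/f::Lyz2cre (n = 3, Lyz2cre from here on) and cSiah1a/2f/f::CD11ccre (n = 1, CD11ccre), with no age, treatment or strain in the labels. The products of Siah1a and Siah2 are ubiquitin ligases of the RING class, and both lines delete the floxed genes with a Cre recombinase, in the myeloid lineage from the lysozyme locus Lyz2 or in CD11c-expressing cells. The labels do not say whether the WT mice carried floxed alleles or a Cre, nor whether replicates came from separate animals, so a p-value measures only the spread between these libraries.

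The chaperone symbols fell into families of unequal size. The HSP70 and HSP110 genes numbered 14, the HSP90 genes 3, the HSP60 and HSP10 pair 2 and the small HSP genes 8. The J-domain genes numbered 4 in Dnaja, 13 in Dnajb and 28 in Dnajc, and there were 8 Cct genes and 2 genes for HSP-binding proteins, Hspbp1 and Hspbap1, that match by name. By the place where the protein works, 53 were put in the cytosol and nucleus, 14 in the ER, 8 in the mitochondrion, and 7 elsewhere or nowhere. TRiC also needs CCT1, encoded by Tcp1, which the symbols leave out, and CCT6A, whose gene Cct6a the table types as a processed transcript; both are given beside the Cct genes.

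Values are TPM, read shares scaled for gene length to a sum of 1000000 in each library. They keep no record of sequencing depth, which is unknown, so no counting interval or detection floor can be given. The targeted genes matched the labels. Siah1a stood at 16.59, 6.72 and 13.35 TPM in WT, at 0, 0 and 0.05 in Lyz2cre and was listed at 0 in CD11ccre, while Siah2 went from 14.5 ± 2.47 (SD, n = 3) in WT to 1.63 ± 0.275 (n = 3) in Lyz2cre and 1.21 in CD11ccre. An exact two-sided permutation test gave p = 0.1 for each gene in Lyz2cre, the smallest that 3 against 3 libraries allow. All 15 alveolar macrophage markers examined were expressed, and in Lyz2cre limma called 5 of them higher (Car4, Marco, Plet1, Chil3 and Fabp4) and 4 lower (Siglecf, Fabp1, Ear1 and Ear2). Siglecf, named in the WT labels, stood at 210.72 to 256.5 TPM in WT and 65.48 to 106.62 in Lyz2cre, and Marco at 222.77 to 593.78 and 1375.14 to 1456.12 TPM. Markers of other cells summed to 54.81 to 106.95 TPM in WT, 124.61 to 167.52 in Lyz2cre and 150.67 in CD11ccre for neutrophils. S100a8 gave most of the Lyz2cre sum, and Ly6g and Ngp were listed at 0 throughout. Of the 5 neutrophil markers tested, limma called 1 higher and 1 lower in Lyz2cre. The dendritic cell sum, nearly all from Cd24a, was 95.06 to 108.7 TPM in WT, 139.58 to 175.57 in Lyz2cre and 185.25 in CD11ccre, and the B cell sum, mostly Igkc in WT, was 6.96 to 17.64, 0.42 to 2.76 and 1.7 TPM. These 2 sums, like the neutrophil sum, did not overlap between WT and Lyz2cre, and their part in the chaperone values was not tested. The sums for T cells and interstitial macrophages stayed at or below 12.26 TPM in every library, and those for alveolar type 2 cells between 71.35 and 96.51 TPM. In bulk samples, fewer cells of a type and less RNA per cell cannot be told apart.

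Another feature of the libraries bears on every value below. Ferritin genes Ftl1 and Fth1 with the chitinase-like gene Chil3 took 4.90% to 5.29% of all TPM in WT, 14.4% to 16.3% in Lyz2cre and 14.0% in CD11ccre, and mitochondrially encoded genes took 7.54% to 9.25%, 2.67% to 4.61% and 4.23%. On the log2(TPM + 1) scale the median of all 11397 genes with a mean of at least 1 TPM was -0.16 in Lyz2cre against WT and -0.29 in CD11ccre against WT. Rescaling each library to its median gene (median of ratios) moved those medians to 0.00 and 0.00, so a chaperone at -0.16 in Lyz2cre lay where the middle gene lay. Immediate-early genes, which tissue dissociation induces, summed to 2776 to 2861 TPM in WT, 2287 to 3198 in Lyz2cre and 2608 in CD11ccre. The part of these shifts in the chaperone values was not tested.

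Chaperone genes made up 0.926%, 0.734% and 0.720% of all TPM in the WT libraries, 0.767%, 0.753% and 0.733% in Lyz2cre and 0.876% in CD11ccre. The first WT library and the CD11ccre library were therefore high, and the Lyz2cre libraries lay inside the WT range. Only 5 genes gave more than the other 77 together in each library: Hspa8, Hsp90ab1, Hspa5, Hsp90b1 and Hsp90aa1, at 0.528%, 0.384% and 0.402% of TPM in WT, 0.450%, 0.440% and 0.425% in Lyz2cre and 0.554% in CD11ccre. The first WT library also held the highest of the 3 WT values for 40 of the 67 tested chaperone genes (59.7%), against 36.8% of all genes tested, and left out alone it moved the sum in Lyz2cre over WT from 0.947 to 1.03.

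**Figure D1:**
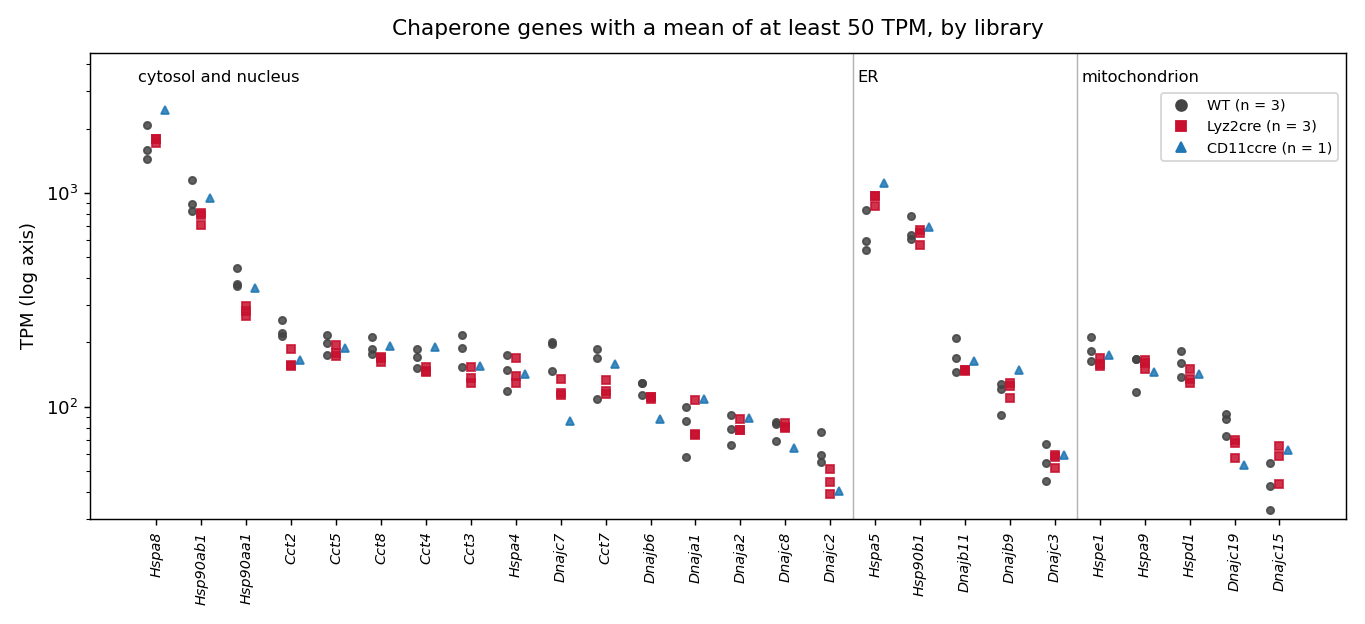
Level of each chaperone gene with a mean of at least 50 TPM in the 3 named compartments, in TPM on a log axis, with 1 point per library (grey circles WT, red squares Lyz2cre, blue triangle CD11ccre). Hspa8 lies highest, at 1434 TPM or more in every library, and the Hspa5 points of both Siah-deleted lines lie above all WT points.

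In the limma test of Lyz2cre against WT, with Benjamini-Hochberg adjustment across the whole table, 4 of the 67 tested chaperone genes were lower and 0 were higher. The share lower, 5.97%, stood near the 4.6% of all genes called lower, and 2.17% of all genes were called higher. The 4 genes were the cytosolic HSP90 gene Hsp90aa1 and the J-domain genes Dnajb13, Dnajc9 and Dnajc24. At an unadjusted p under 0.05, 2 chaperone genes were higher and 14 lower, against 5.96% and 18.7% of all genes. In 5 genes every Lyz2cre library lay above every WT library and in 17 every one lay below, 7.46% and 25.4% of those tested, against 7.45% and 23.3% of all genes. The median chaperone gene stood at -0.16, as did the median of all genes, and 43 of 67 (64.2%) were below 0 against 67.0% of all genes.

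The precision of the test bounds what it could call. The median SE of a chaperone log2 fold change in Lyz2cre against WT was 0.19 (all genes 0.22). For 54 of the 67 genes the 95% interval of limma's model lay wholly inside a 2-fold change of TPM plus the pseudocount, in either direction. The pseudocount, a constant added before taking logs, narrows this interval for low genes, so in plain TPM it can reach past 2-fold.

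In CD11ccre against WT, where 1 library is assumed to vary like those of the other groups, 1 chaperone gene was lower, Dnajc7 (1.49%, against 1.99% of all genes), and 0 were higher (0.895% of all genes). At an unadjusted p under 0.05, 4 were higher and 10 lower, against 3.45% and 18.8% of all genes. The CD11ccre value lay above the WT range for 13 genes (19.4%) and below it for 24 (35.8%), against 13% and 50.5% of all genes. The median chaperone gene stood at -0.03 and that of all genes at -0.29. The 2 comparisons share the WT libraries and are not independent of each other.

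Between CD11ccre and Lyz2cre, limma called 0 chaperone genes higher and 0 lower, against 0.0439% and 0.0702% of all genes. At an unadjusted p under 0.05 the test gave 1 gene in each direction, against 1.22% and 4.88% of all genes.

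**Figure D2:**
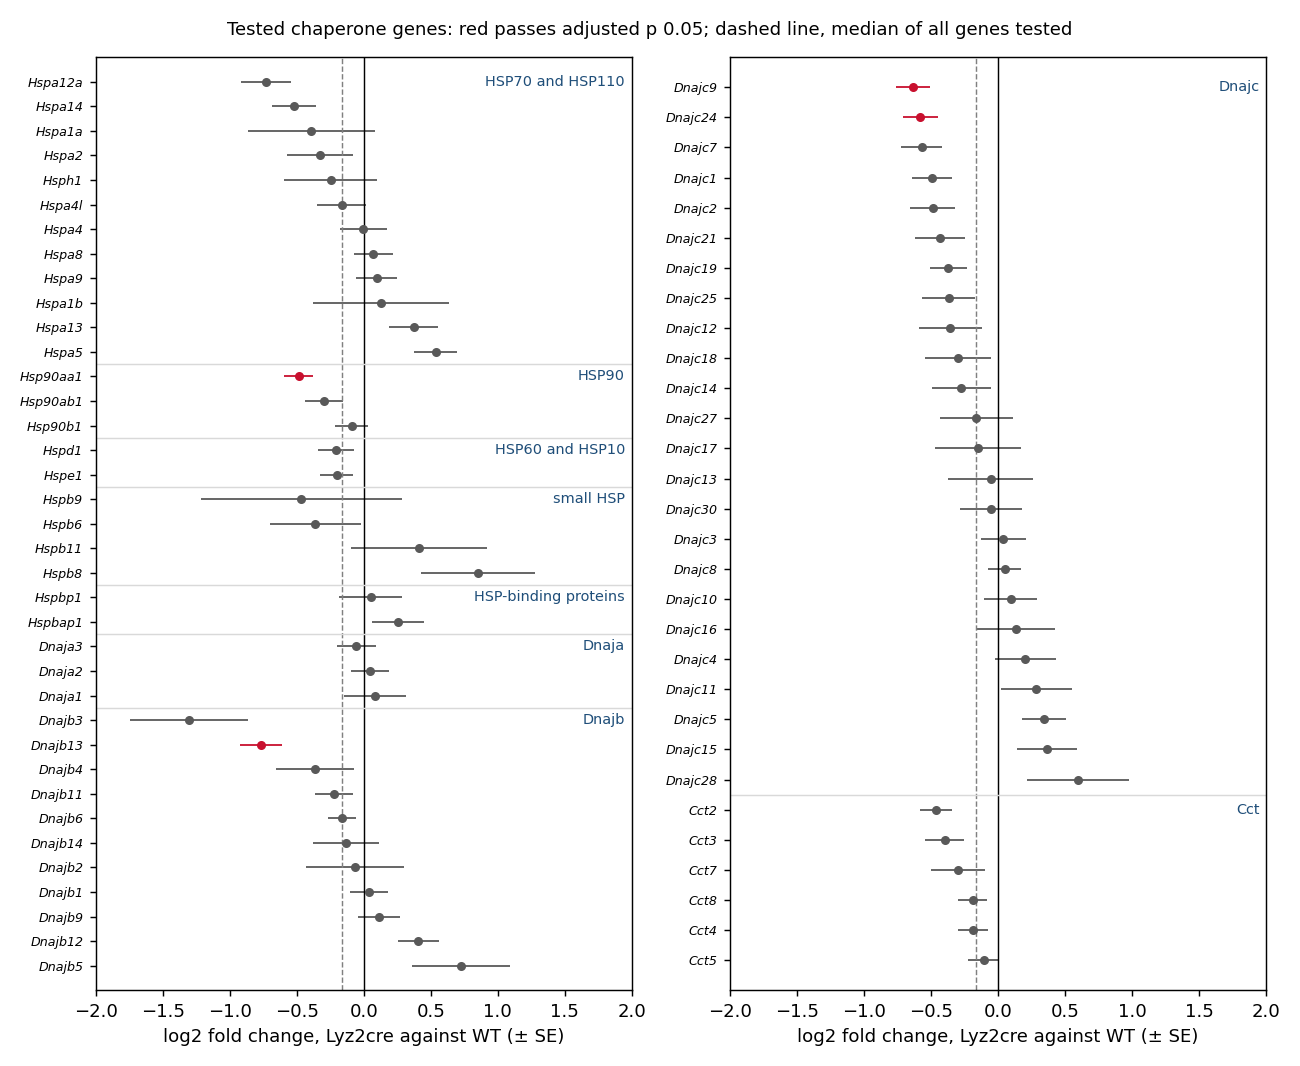
Log2 fold change (log2(TPM + 1), Lyz2cre against WT) of the 67 tested chaperone genes with its SE, by family, the solid line marking 0 and the dashed line the median of all genes tested, -0.16. Red points are Hsp90aa1, Dnajb13, Dnajc9 and Dnajc24, which passed an adjusted p of 0.05; those calls end when libraries are scaled to their median gene.

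Of the HSP70 class, Hspa8 encodes HSC70, the constitutive cytosolic HSP70 that also strips clathrin from vesicles and carries proteins to the lysosome. It stood at 2084.51, 1434 and 1588.08 TPM in WT, 1794.8, 1786.87 and 1718.71 in Lyz2cre and 2433.93 in CD11ccre. The Lyz2cre libraries lay inside the WT range and the CD11ccre library above it. The log2 fold change in Lyz2cre was 0.07 (SE 0.14, limma adjusted p = 0.807), with a 95% interval from -0.26 to 0.41.

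Reads of Hspa8 are hard to place. Of all 75-base stretches of its transcript, 68% also occur in another annotated gene, most of them processed pseudogenes, copies of a spliced messenger that landed elsewhere in the genome. Gm8355, annotated on chromosome 10 at 14745362 to 14747302 on the minus strand of GRCm38, is one such copy. Of the 1864 stretches of 75 bases in the Hspa8 coding sequence, 805 (43.2%) occur letter for letter in Gm8355. The stretches below were read from the GENCODE transcripts and are shown because a read of the first matches both genes, while a read of the second or the third matches 1 of them. The first is coding bases 268 to 342 of Hspa8, which both hold. The other two are the first place where the genes differ by the middle base of a stretch alone (C38T, counted from 1 at the 5′ end of the stretch, Hspa8 base first), with that base in capitals.
Both genes: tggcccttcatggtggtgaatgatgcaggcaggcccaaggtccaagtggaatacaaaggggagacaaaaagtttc
Hspa8: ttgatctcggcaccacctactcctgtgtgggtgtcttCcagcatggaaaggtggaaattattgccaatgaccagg
Gm8355: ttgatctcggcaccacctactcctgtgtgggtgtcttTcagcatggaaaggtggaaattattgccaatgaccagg

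Of the copies, Gm8355 had the highest value. It stood at 580.41, 537.32 and 386.3 TPM in WT, 220.06, 167.16 and 244.63 in Lyz2cre and 382.34 in CD11ccre, and was lower in Lyz2cre with a log2 fold change of -1.24 (SE 0.20, limma adjusted p = 0.0149). That call ended without the first WT library (adjusted p = 0.0519) or the second (adjusted p = 0.0607). Added together, Hspa8 and Gm8355 gave 2664.92, 1971.32 and 1974.38 TPM in WT, 2014.86, 1954.03 and 1963.34 in Lyz2cre and 2816.27 in CD11ccre. The ratio of Lyz2cre to WT was thus 1.04 for Hspa8 alone and 0.897 for the sum. How the quantification divided reads between the 2 rows was not tested, and Gm8355, no chaperone gene by biotype, was named after its values were seen.

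**Figure D3:**
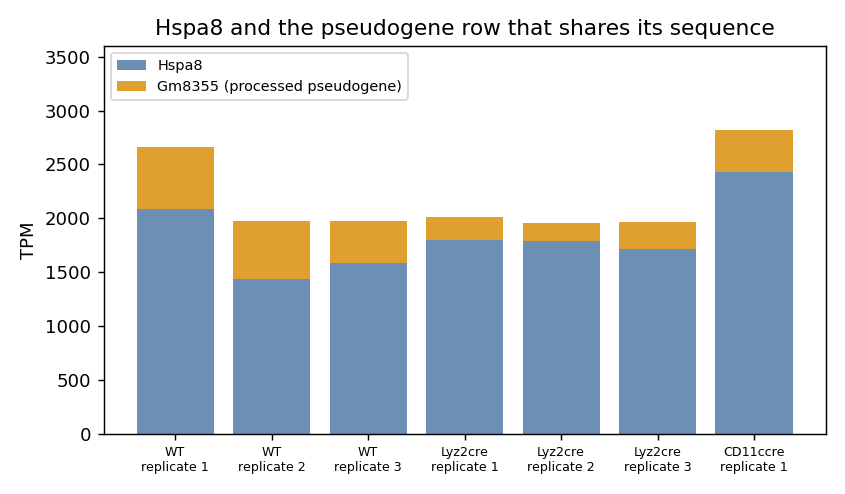
TPM of Hspa8 (blue) and of the processed pseudogene Gm8355 (orange) stacked for each of the 7 libraries. The orange part is smaller in the 3 Lyz2cre libraries (167.16 to 244.63 TPM) than in the 3 WT libraries (386.3 to 580.41 TPM), while the whole bar stays between 1954.03 and 2664.92 TPM in both.

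Hspa5 encodes BiP, the HSP70 of the ER lumen, which binds nascent secretory proteins and holds the sensors of the unfolded protein response inactive; its gene lies at chr2:34771970-34777547 (mm10, plus strand). It stood at 827.71, 538.77 and 598.97 TPM in WT, 965.13, 972.19 and 868.17 in Lyz2cre and 1115.44 in CD11ccre. No Siah-deleted library reached down to the WT range, and the ratio to the WT mean was 1.43 in Lyz2cre and 1.70 in CD11ccre. As deposited, neither passed the test over all genes: the log2 fold change was 0.54 (SE 0.16, limma adjusted p = 0.0983) in Lyz2cre and 0.79 (SE 0.23, adjusted p = 0.109) in CD11ccre. With libraries scaled to their median gene the values were 0.72 (adjusted p = 0.0391) in Lyz2cre and 1.11 in CD11ccre. Without the first WT library they were 0.72 (adjusted p = 0.0356) and 0.97. Those were the only 2 of 15 alternatives in which Hspa5 passed in Lyz2cre. Over the 15 its log2 fold change there ran from 0.41 to 0.72 and the adjusted p reached 0.223. Without the second WT library it was 0.41 (adjusted p = 0.220).

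None of the rest of the HSP70 class passed the test in either line. Hspa9 encodes mortalin, the HSP70 of the mitochondrial matrix, and gave 166.77, 166.57 and 117.8 TPM in WT, 160.41, 150.79 and 165.33 in Lyz2cre and 145.29 in CD11ccre, the groups overlapping. Hspa12a, a distant relative, gave 17.28, 17.32 and 21.19 TPM in WT, 12.9, 11.17 and 8.65 in Lyz2cre and 10.35 in CD11ccre. All deleted libraries of Hspa12a lay below WT, with a log2 fold change of -0.73 in Lyz2cre (SE 0.19, limma adjusted p = 0.0633). The stress-inducible pair Hspa1a and Hspa1b, the classical heat shock genes, share 54.2% and 55.8% of their 75-base stretches with other genes, chiefly each other, and are best read as a sum. That sum was 26.4, 36.15 and 18.66 TPM in WT, 24.28, 50.15 and 10.86 in Lyz2cre and 28.91 in CD11ccre, with the Lyz2cre libraries reaching both above and below WT. Hsph1, the heat-inducible HSP110, was also wide within WT, at 58.67, 32.86 and 19.68 TPM, against 29.05, 27.33 and 28.38 in Lyz2cre and 37.59 in CD11ccre. Hspa2, an HSP70 known from testis, gave 4.56, 6.58 and 4.97 TPM in WT, 3.7, 5.16 and 3.4 in Lyz2cre and 1.66 in CD11ccre, where the log2 fold change was -1.25 (SE 0.35, limma adjusted p = 0.0971). Genes named beyond the rule of the processing notes, such as these last 4, were chosen after their values were seen.

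The cytosolic HSP90 proteins come from 2 genes, the inducible Hsp90aa1 and the constitutive Hsp90ab1. Hsp90aa1 (chr12:110690605-110702728, minus strand) stood at 443.99, 374.9 and 368.52 TPM in WT, 297.46, 265.69 and 281.22 in Lyz2cre and 358.33 in CD11ccre. All Lyz2cre libraries lay below all WT libraries, 1.41-fold lower on the means (396 ± 41.9 and 281 ± 15.9, SD, n = 3 each), with a log2 fold change of -0.49 (SE 0.11, limma adjusted p = 0.0463). The call ended with libraries scaled to their median gene (-0.30, adjusted p = 0.161) and when any single WT or Lyz2cre library was left out. Although 53.1% of its 75-base stretches recur in other genes, those genes together held at most 1.76 TPM in any library.

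Hsp90ab1 gave 1149.62, 884.42 and 821.56 TPM in WT, 791.86, 803.12 and 704.48 in Lyz2cre and 947.2 in CD11ccre. Here too every Lyz2cre library lay below WT, but the log2 fold change of -0.30 (SE 0.14, limma adjusted p = 0.244) did not pass, and CD11ccre lay inside the WT range. The ER member Hsp90b1 stood at 776.78, 608.84 and 638.51 TPM in WT, 650.56, 570.42 and 673.93 in Lyz2cre and 689.52 in CD11ccre, all within or near the WT range. Hsp90b1 and Hspa5 are both ER chaperones, with log2 fold changes in Lyz2cre of -0.09 (SE 0.13) and 0.54 (SE 0.16); the difference between the 2 genes was not tested.

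Of the J-domain genes, which choose the clients and places of HSP70 action, 3 were called lower in Lyz2cre. Dnajc9 (chr14:20384638-20388910, minus strand) encodes a nuclear J-domain protein that is also a chaperone of histones H3 and H4. It stood at 31.47, 33.02 and 28.21 TPM in WT, 19.94, 19.35 and 19.22 in Lyz2cre and 23.5 in CD11ccre. The Lyz2cre libraries lay close together and all below WT, 1.58-fold lower on the means (30.9 ± 2.46 and 19.5 ± 0.384, SD, n = 3 each), with a log2 fold change of -0.63 (SE 0.13, limma adjusted p = 0.0335).

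Dnajc24 (chr2:105966709-106003549, minus strand) encodes DPH4, a J-domain protein of the pathway that makes diphthamide on elongation factor EEF2. It gave 29.48, 33.33 and 36.39 TPM in WT, 21.88, 21.51 and 21.73 in Lyz2cre and 24.95 in CD11ccre. Every deleted library lay below WT, and in Lyz2cre the means were 1.52-fold apart with a log2 fold change of -0.58 (SE 0.13, limma adjusted p = 0.0463).

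Dnajb13 (chr7:100501716-100514960, minus strand) encodes a J-domain protein of the radial spokes of sperm tails and motile cilia. It stood at 32.16, 40.67 and 31.27 TPM in WT, 18.57, 22.44 and 18.74 in Lyz2cre and 18.64 in CD11ccre. The groups did not overlap, the means being 1.74-fold apart in Lyz2cre with a log2 fold change of -0.77 (SE 0.16, limma adjusted p = 0.0360). The gene overlaps Ucp2, a mitochondrial carrier gene on the opposite strand, which gave 2286.76, 1900.78 and 2217.6 TPM in WT, 1927.95, 2052.07 and 1676.46 in Lyz2cre and 1486.53 in CD11ccre. Dnajb13 amounted to 1.41%, 2.14% and 1.41% of Ucp2 in WT, 0.963%, 1.09% and 1.12% in Lyz2cre and 1.25% in CD11ccre. The kit keeps strand, but the strand setting of the quantification is not given in the sources used here, so a share of Ucp2 reads in the Dnajb13 row was not tested.

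With libraries scaled to their median gene the log2 fold changes were -0.46 for Dnajc9 (adjusted p = 0.0958), -0.40 for Dnajc24 (adjusted p = 0.160) and -0.59 for Dnajb13 (adjusted p = 0.0940), so those calls ended while the direction stayed. Of the 6 single libraries left out in turn, only the third WT library left the Dnajc9 call standing, and none left the other 2.

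Dnajc7 (chr11:100582818-100620168, minus strand) encodes TPR2, which carries tetratricopeptide repeats that bind both HSP70 and HSP90 and passes clients between them. It stood at 196.1, 201.7 and 147.72 TPM in WT, 116.17, 134.43 and 113.08 in Lyz2cre and 86.15 in CD11ccre. The CD11ccre value was 2.11-fold below the WT mean, with a log2 fold change of -1.06 (SE 0.21, limma adjusted p = 0.04995), which is at the threshold. In Lyz2cre the libraries also lay below all WT libraries, 1.5-fold lower on the means, with a log2 fold change of -0.57 (SE 0.15, adjusted p = 0.0673). The difference between the 2 lines, -0.48, did not pass (adjusted p = 0.822). With libraries scaled to their median gene Dnajc7 was at -0.74 in CD11ccre (adjusted p = 0.152) and -0.39 in Lyz2cre (adjusted p = 0.196), and without the third WT library it passed in both (-1.20 and -0.71, adjusted p = 0.0342 and 0.0342). The CD11ccre call ended when any other WT or Lyz2cre library was left out.

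**Figure D4:**
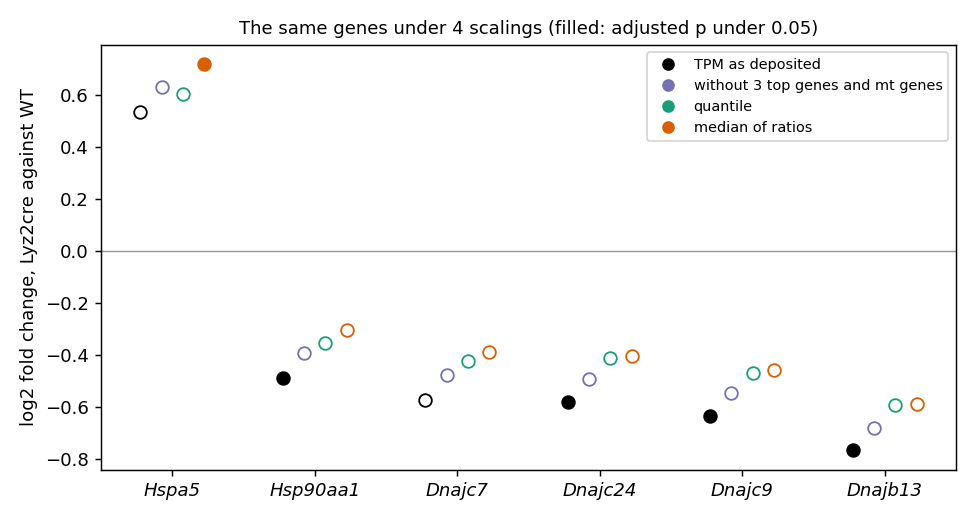
Log2 fold change in Lyz2cre against WT of Hspa5, Dnajc7 and the 4 genes called lower, under TPM as deposited and 3 other scalings, filled where the limma adjusted p was under 0.05. Each gene kept its direction, but the 4 calls of lower genes stood only as deposited and Hspa5 passed only when libraries were scaled to their median gene.

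The other abundant J-domain genes did not pass the test in either line. In the ER, Dnajb11 (ERdj3), a cofactor of BiP on nascent chains, gave 209.44, 146.15 and 169.48 TPM in WT, 147.76, 148.46 and 148.63 in Lyz2cre and 163.16 in CD11ccre, and Dnajb9 (ERdj4), which turns BiP toward the stress sensor IRE1, gave 128.11, 91.17 and 120.69, then 125.46, 109.58 and 129.78, then 148.47. For neither did the WT and Lyz2cre groups separate. Smaller ER members lay on both sides of WT. Dnajb12, which sits in the ER membrane, was above WT in all Lyz2cre libraries (15.3 to 17.24 against 18.73 to 23.86 TPM, log2 fold change 0.41, limma adjusted p = 0.153), and Dnajc1, which binds BiP near the ribosome, was below it (28.69 to 38.24 against 22.39 to 24.76 TPM, -0.49, adjusted p = 0.0931). In the cytosol, Dnaja1 and Dnaja2, the general partners of HSC70, overlapped between groups, at 58.42 to 100.01 and 66.44 to 92.09 TPM in WT and 73.58 to 107.97 and 77.91 to 87.46 in Lyz2cre. Dnajb6, which keeps aggregating proteins soluble, gave 128.59, 129.45 and 113.61 TPM in WT, 109.19, 111.66 and 110.75 in Lyz2cre and 88.08 in CD11ccre. Its Lyz2cre libraries lay just below WT, with a log2 fold change of -0.16 (SE 0.10, limma adjusted p = 0.393) that turned to 0.02 with libraries scaled to their median gene. Dnajc8, a nuclear splicing-associated J-domain protein, overlapped between WT (69.06 to 85.33 TPM) and Lyz2cre (79.89 to 84.02 TPM).

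In the mitochondrion, Hspd1 gave 181.79, 160.94 and 137.21 TPM in WT, 150.45, 128.61 and 134.51 in Lyz2cre and 142.52 in CD11ccre, and Hspe1, its lid, gave 212.67, 163.92 and 182.01, then 158.35, 168.39 and 155.52, then 174.39. The log2 fold changes of this pair in Lyz2cre were -0.21 (SE 0.14) and -0.20 (SE 0.12), near the median of all genes. Dnajc19, a J-domain protein of the inner membrane, was lower in every deleted library (92.72, 87.53 and 73.45 TPM in WT, 67.69, 69.92 and 57.52 in Lyz2cre, 53.5 in CD11ccre) without passing the test in Lyz2cre (-0.37, SE 0.14, limma adjusted p = 0.157). Its relative Dnajc15 went the other way, at 33.08, 42.52 and 54.64 TPM in WT, 43.42, 58.66 and 65.33 in Lyz2cre and 62.72 in CD11ccre, with overlapping groups (0.36, SE 0.22, adjusted p = 0.364). Both are J-domain partners of the mitochondrial import motor. Dnaja3 and Dnajc11, the other named mitochondrial members, overlapped between WT and Lyz2cre, at 20.94 to 24.58 and 17.66 to 32.29 TPM in WT.

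The TRiC genes stayed in a narrow band. The 6 tested Cct genes ran from 108.67 to 253.44 TPM in WT, 115.39 to 193.87 in Lyz2cre and 155.36 to 191.98 in CD11ccre. Cct2 stood lowest relative to WT, at 253.44, 222.24 and 213.87 TPM in WT, 187.08, 155.72 and 156.89 in Lyz2cre and 166.28 in CD11ccre, with all deleted libraries below WT (log2 fold change in Lyz2cre -0.46, SE 0.12, limma adjusted p = 0.0665). Cct5 and Cct8 lay at -0.11 (SE 0.12) and -0.19 (SE 0.11). All 6 log2 fold changes were below 0 in Lyz2cre (5 of 6 with median-of-ratios scaling and 5 of 6 with quantile normalization, where Cct5 rose above 0) and 3 of 6 in CD11ccre, and 0 of the 6 passed the test in either line. Tcp1 gave 158.8, 142.08 and 135.08 TPM in WT, 147.08, 127.52 and 131.97 in Lyz2cre and 136.24 in CD11ccre, and Cct6a 229.99, 152.8 and 169.96, then 117.94, 138.26 and 152.77, then 124.08. Cct6a lay below WT in all deleted libraries, the third Lyz2cre library only just, and did not pass in Lyz2cre (limma adjusted p = 0.201).

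Genes with small HSP symbols, most of whose proteins hold unfolded clients without ATP, had low values, at or below 10 TPM in every library. Hspb1, Hspb2 and Hspb3 were listed at 0 in all libraries, and Hspb6, Hspb9 and Hspb11 stayed at or below 10 TPM with overlapping groups. Hspb8, a partner of BAG3 in selective autophagy, was named after its values were seen. It was listed at 0 in all 3 WT libraries, at 0.25, 0.73 and 1.73 TPM in Lyz2cre and at 4.95 in CD11ccre. It did not pass the test (limma adjusted p = 0.265 in Lyz2cre and 0.0695 in CD11ccre) and passed in CD11ccre only with a pseudocount of 5 (adjusted p = 0.0453). Of the HSP-binding genes, Hspbp1, an exchange factor of HSP70, overlapped between WT (26.64 to 44.03 TPM) and Lyz2cre (27.37 to 43.88 TPM). Hspbap1 lay at 3.62 to 4.58 TPM in WT and just above, at 4.86 to 5.39 TPM, in Lyz2cre (limma adjusted p = 0.471).

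In all, 15 of the 82 genes had a mean under 1 TPM and were not tested: Cct6b, Cct8l1, Dnaja4, Dnajb7, Dnajb8, Dnajc5b, Dnajc5g, Dnajc6, Dnajc22, Hspa1l, Hspa12b, Hspb1, Hspb2, Hspb3 and Hspb7. Of these, 8 were listed at 0 in all 7 libraries. Several are known from testis, muscle or brain, and none exceeded 1.36 TPM in any library.

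Summed TPM gives each family's share of the messenger pool. The HSP70 and HSP110 sum was 3429.41, 2455.66 and 2550.81 TPM in WT, 3219.8, 3185.37 and 3006.16 in Lyz2cre and 3970.87 in CD11ccre, a ratio to the WT mean of 1.12 and 1.41. The first WT library lay above all Lyz2cre libraries. Hspa8 and Hspa5 gave most of this sum, and 7 of its 12 tested genes were below 0 in Lyz2cre (median -0.08). The sum leaves out Gm8355, with which the Lyz2cre ratio of Hspa8 was 0.897. The HSP90 sum was 2370.39, 1868.16 and 1828.59 TPM in WT, 1739.88, 1639.23 and 1659.63 in Lyz2cre and 1995.05 in CD11ccre, a ratio of 0.830 and 0.986, the second turning to 1.24 with libraries scaled to their median gene. The Dnajc sum was 927.54, 877.37 and 803.62 TPM in WT, 736.47, 765.1 and 750.2 in Lyz2cre and 659.6 in CD11ccre. Dnajc7 was its largest member, with means of 182 TPM in WT and 121 in Lyz2cre and 86.15 TPM in CD11ccre. In Lyz2cre 15 of the 24 tested Dnajc genes were below 0, with a median of -0.16, as for all genes. The deleted libraries lay below all WT libraries for Dnajc and for HSP60 with HSP10. In the latter CD11ccre (316.91 TPM) lay only just below the lowest WT library (319.22 TPM). Only the Lyz2cre libraries did so for HSP90, Dnajb by a little, and Cct (1271.54, 1117.34 and 1000.28 against 923.86, 936.34 and 921.22 TPM). The sums of the small HSP genes (4.49 to 18.07 TPM in WT, 10.25 to 13.76 in Lyz2cre) and of the HSP-binding proteins (30.26 to 48.61 and 32.36 to 49.27 TPM) overlapped. The ratio of Lyz2cre to WT was 0.863 for Dnajc and 0.821 for Cct as deposited, and 0.982 and 0.934 with libraries scaled to their median gene.

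**Figure D5:**
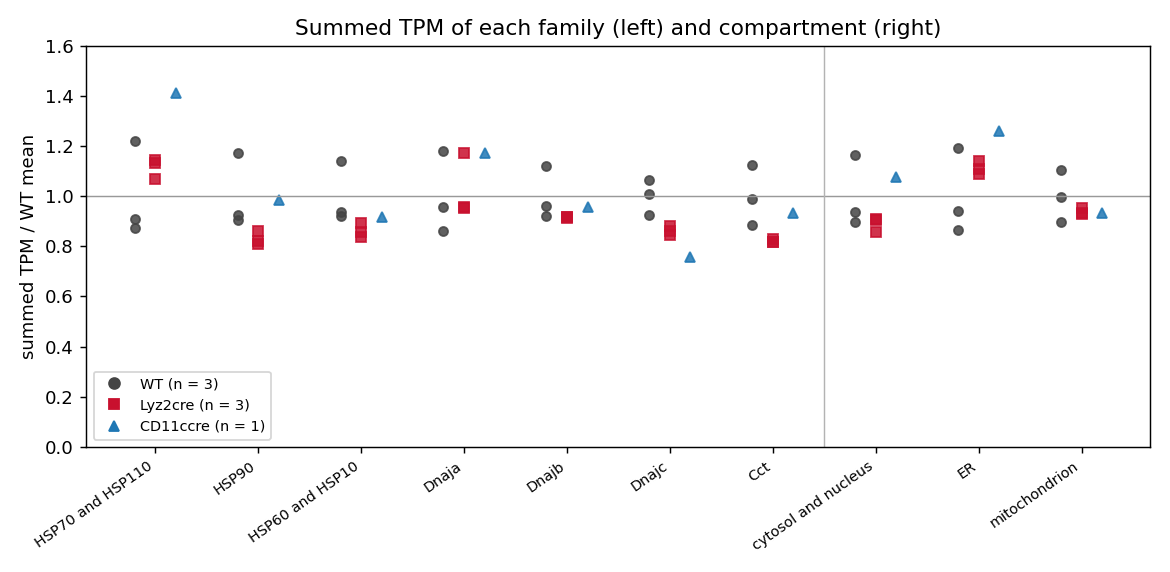
Summed TPM of 7 families (left of the line; the small HSP genes and HSP-binding proteins are left out) and compartment (right), each library divided by the WT mean of that sum, with the axis from 0 and a line at 1. As deposited, every family drawn but HSP70 with HSP110 and Dnaja lies below all WT points in Lyz2cre, HSP70 with HSP110 and the ER lie above them in CD11ccre, and the first WT library is the highest WT point in every column; with median-of-ratios scaling the ratios of HSP90 and Cct in CD11ccre turn to 1.24 and 1.17 and that of Dnajb in Lyz2cre to 1.04.

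By compartment, cytosolic and nuclear chaperones had a median log2 fold change of -0.27 in Lyz2cre, with 30 of 40 tested genes (75%) below 0 against 67.0% of all genes, and the ER genes one of -0.03, with 7 of 14 (50%) below 0. The mitochondrial genes lay at -0.05, with 5 of 8 below 0. With libraries scaled to their median gene, the cytosolic and nuclear median was -0.09, with 24 of 40 below 0 against 49.7% of all genes. The ER median was then 0.16, with 5 of 14 below 0, and the mitochondrial median 0.12, with 3 of 8 below 0. In summed TPM the ratio of Lyz2cre to WT was 0.890 for the cytosol, 1.11 for the ER and 0.939 for the mitochondrion, the first and last turning to 1.01 and 1.07 with libraries scaled to their median gene and the ER to 1.27. In CD11ccre the ratios were 1.08, 1.26 and 0.933 as deposited, the last turning to 1.17 under that scaling. The ER sum was 1839 ± 315 TPM in WT and 2046 ± 49.3 in Lyz2cre (SD, n = 3 each), and Hspa5 alone was 655 ± 152 and 935 ± 58.1 TPM. The ER sums overlapped, the first WT library (2194.14 TPM) lying above all Lyz2cre libraries (2001.17 to 2098.77 TPM). The 4 genes called lower in Lyz2cre were cytosolic or nuclear, as were 40 of the 67 tested. No difference between compartments was tested.

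The partners of these chaperones, taken from lists of known co-chaperones and folding enzymes, gave few calls, to be read against the 2.17% of all genes called higher and 4.6% called lower in Lyz2cre. Of 24 tested co-chaperones of HSP70 and HSP90, 0 were higher and 1 was lower in Lyz2cre, Tomm34, a cytosolic protein that binds HSP70 and HSP90 on the way to mitochondrial import (69.43, 66.45 and 68.38 TPM in WT, 44.59, 48.47 and 43.2 in Lyz2cre, 40.59 in CD11ccre; limma adjusted p = 0.0285). The list's median was -0.18 against -0.16 for all genes. Of 12 tested TRiC and prefoldin partners 1 was lower, Uri1, a prefoldin-like protein of the R2TP assembly complex (20.02, 20.04 and 23.38 TPM in WT, 11.85, 8.57 and 13.11 in Lyz2cre, 9.13 in CD11ccre; adjusted p = 0.0393), and the median was -0.29. Heat shock factors gave 0 calls in 2 tested genes (median -0.35), Hsf1, the main factor of the heat shock response, standing at 13.27 to 20.82 TPM in WT and 11.02 to 15.58 in Lyz2cre. The calls of Tomm34 and Uri1 ended when any single WT or Lyz2cre library was left out and with libraries scaled to their median gene.

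Of 30 ER folding enzymes and lectins 1 was higher in Lyz2cre, Fkbp11, a prolyl isomerase of the secretory pathway, at 2.83, 0 and 1.92 TPM in WT, 9.03, 8.04 and 14.07 in Lyz2cre and 12.96 in CD11ccre (limma adjusted p = 0.0402), and the median was 0.05. Calr, the calcium-binding lectin chaperone calreticulin, was named after its values were seen. Its groups, though not its single libraries, stood in the order of Hspa5: 959.82, 668.06 and 569.99 TPM in WT, 1142.92, 1001.87 and 1141.81 in Lyz2cre and 1285.49 in CD11ccre. Its log2 fold change of 0.61 in Lyz2cre did not pass (limma adjusted p = 0.0998), although no deleted library reached into the WT range. The rest of this list lay on both sides of 0 in Lyz2cre. Examples, also chosen after their values were seen, are Sil1 at 0.41 and Hyou1 at 0.27, against Derl2 at -0.33 and Manf at -0.25. Every Lyz2cre library of Derl2 lay below WT, and none of these examples passed the test. Of 17 mitochondrial folding and import partners 1 was lower, Tomm20, the presequence receptor of the outer membrane (59.25, 59.73 and 68.28 TPM in WT, 38.43, 36.08 and 43.9 in Lyz2cre, 31.12 in CD11ccre; adjusted p = 0.0334 in Lyz2cre and 0.0424 in CD11ccre), and the median was -0.06. Of 17 tested immediate-early genes 1 was higher, Ier3, an early stress response gene (22.23, 25.62 and 14.68 TPM in WT, 65.09, 73.32 and 60.35 in Lyz2cre, 41.91 in CD11ccre; adjusted p = 0.00746), with a list median of -0.27. In CD11ccre, Tomm20 was the 1 call among these lists. Both Tomm20 calls ended when any single WT or Lyz2cre library was left out and with libraries scaled to their median gene, and the Fkbp11 call ended without the third WT library or any 1 Lyz2cre library, while that of Ier3 stood in each of those cases.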

How the data were processed

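Poly(A)-selected, strand-keeping NEBNext libraries of alveolar macrophage RNA were sequenced single-end on a NextSeq 500, per the labels' protocols. Trimming, alignment and quantification used cutadapt 2.3, STAR 2.7.0d and RSEM 1.3.1 on mm10, per the submitters' processing notes; for parameters, annotation release and strand setting the answer is "not given in the sources used here". The authors deposited 1 table of TPM to 2 decimals. Each library sums to the same total, so abundant genes that gain share push the others down.

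The test was limma (3.58.1, R 4.3.3) with log2(TPM + 1) as input; the pseudocount of 1 understates changes of low genes. It covered 11397 genes with a mean of at least 1 TPM over the 7 libraries, fitted together by genotype, with the prior variance following mean level (residual degrees of freedom 4, prior 3.35). The p-values are two-sided with Benjamini-Hochberg adjustment across those genes and a threshold of 0.05, and the script was tested on simulated data. N-fold values and ratios are of plain TPM. Coordinates and transcripts came from GENCODE M21 on GRCm38 (mm10). Stretches of 75 bases, the read length, were matched between transcripts exactly.

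The members, lists and markers were chosen with earlier results of these data known. Named genes were the called members, the 3 most abundant of each family, the 3 of each compartment with a mean of at least 5 TPM and the largest change in Lyz2cre, up to 4 called genes of each other list, and Siah1a and Siah2. Alternatives were other pseudocounts, filters, scalings, no trend, a replicate block and leaving out each WT and Lyz2cre library. The alternatives for summed TPM, for CD11ccre against Lyz2cre, and for Hspb8 and Gm8355 were chosen after seeing the data.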

Additional observations from a re-analysis of the deposited data

How the results depend on the processing

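Depth is unknown, replicates are few and CD11ccre is 1 library, which limits what the test could call. The 4 chaperone genes called lower in Lyz2cre remained 4 with pseudocounts of 0.1 and 5 and with a minimum mean of 5 TPM, became 1 without a filter, and 0 with median-of-ratios scaling, quantile normalization, removal of Ftl1, Fth1, Chil3 and mitochondrially encoded genes, or no trend; leaving out 1 library gave 0 to 2. Those called higher went from 0 to 1 (Hspa5) with median-of-ratios scaling, and 0 to 1 over the libraries left out. In CD11ccre the 1 called higher appeared with a pseudocount of 5 (Hspb8) and with median-of-ratios scaling (Hspa5), and the 1 called lower became 0 with pseudocounts of 0.1 and 5, no filter, each of the 3 scalings and no trend, and was 0 to 1 over the libraries left out. The counts between CD11ccre and Lyz2cre stayed 0. Fewer libraries or a block also leave fewer residual degrees of freedom. Over all genes, 247 higher and 524 lower in Lyz2cre became 337 and 207 with median-of-ratios scaling, 316 and 213 with quantile normalization, 280 and 269 with that removal, 189 and 247 without the trend and 137 and 205 without a filter; in CD11ccre 102 and 227 became 154 and 87, 122 and 79, 97 and 144, 61 and 61, and 300 and 193.

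Same-numbered WT and Lyz2cre libraries deviated with correlations of -0.0149, 0.0431 and 0.0656, so they shared little deviation. With so few libraries this cannot show whether the numbers mark pairs, which the labels do not say. With the replicate number as a block, 0 chaperone genes were called lower in Lyz2cre and 0 in CD11ccre, and over all genes 171 were higher and 219 lower in Lyz2cre and 8 and 13 in CD11ccre; the first WT and the first 2 Lyz2cre libraries did not correlate best with their own number.

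In the cases below, the ratio of summed TPM changed from its deposited value by more, in proportion, than the WT SD over the WT mean. CD11ccre is 1 library and has no spread of its own. With median-of-ratios scaling, the ratio of Lyz2cre to WT was 0.934 for Cct, 1.04 for Dnajb, 0.982 for Dnajc and 1.07 for the mitochondrion, and that of CD11ccre to WT was 1.38 for all members, 1.77 for HSP70 and HSP110, 1.24 for HSP90, 1.17 for Cct, 1.20 for Dnajb, 0.949 for Dnajc, 1.35 for the cytosol, 1.58 for the ER and 1.17 for the mitochondrion. With quantile normalization, Lyz2cre stood at 1.04 for Dnajb, 0.974 for Dnajc and 1.05 for the mitochondrion, and CD11ccre at 1.28 for all members, 1.09 for Cct, 1.15 for Dnajb, 0.930 for Dnajc, 1.25 for the cytosol and 1.11 for the mitochondrion.

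Of the 67 tested members, 43 had a log2 fold change below 0 in Lyz2cre as deposited, 32 with median-of-ratios scaling, 34 with quantile normalization and 37 with the removal above. Among the genes named by the rule, those that changed sign had not passed the test. With median-of-ratios scaling these were Cct5 at 0.0758, Dnaja3 at 0.122, Dnajb6 at 0.0223, Dnajc13 at 0.123 and Hsp90b1 at 0.0937, and with quantile normalization Cct5 at 0.0176, Dnaja3 at 0.110, Dnajb6 at 0.0226 and Dnajc13 at 0.129. With the abundant and mitochondrial genes removed they were Dnaja3 at 0.0366, Dnajc13 at 0.0377 and Hsp90b1 at 0.00462. Leaving out 1 library at a time, the values ran from -0.134 to 0.249 for Dnaja1, -0.0724 to 0.160 for Dnaja2, -0.125 to 0.0177 for Dnaja3, -0.0356 to 0.208 for Dnajb9, -0.417 to 0.231 for Dnajc13, -0.0472 to 0.103 for Dnajc8, -0.160 to 0.0150 for Hsp90b1, -0.0426 to 0.227 for Hspa8, -0.0700 to 0.179 for Hspa9, -0.0482 to 0.691 for Hspb11, -1.07 to 0.154 for Hspb9 and -0.112 to 0.246 for Hspbp1. The cause was not tested.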
